A study of Mus musculus with 7 samples.

Results

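The 10 genes Fos, Fosb, Junb, Egr1, Egr2, Egr4, Npas4, Arc, Nr4a1 and Bdnf are immediate early or activity-induced genes, and they were examined in endpoint brain tumors of a mouse glioma model. They were found by symbol in the deposited table of normalized counts, in which 10 of 10 were present among 19257 genes, and all 10 were among the 14782 genes that were tested, those whose normalized counts averaged at least 10. The series set 4 GPC6 tumors (replicates 1, 2, 3 and 4) against 3 control tumors (replicates 2, 3 and 4, with the label 3xCr and written 3xCR here), with 1 bulk RNA-Seq library per brain, to ask what GPC6 changes in tumor growth. The 3xCR tumors were made by in utero electroporation of a CRISPR-Cas9 construct that targets tumor suppressors including Trp53 and Nf1, together with a piggyBac transposon that labels the electroporated lineage with GFP. The GPC6 tumors carried the same construct and label and in addition a piggyBac transposon for overexpression of GPC6, a glypican that astrocytes secrete and that promotes synapse formation. The mice were of CD-1 and C57BL/6 backgrounds and of both sexes, and age and sex are not given for the single libraries. Tumors were taken at endpoint and not at a fixed age, so that age and group cannot be told apart.

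The libraries were made from fluorescent tumor tissue and not from sorted cells, so that tumor cells and host neurons, glia and immune cells all contribute RNA, and fewer cells of a type cannot be told apart from less RNA per cell. No tumor-free brain was analysed here. The label of the GPC6 group was checked on the gene itself: Gpc6 had 217, 226 and 126 normalized counts (reads on a gene divided by a size factor for the library) in the controls. Its values were 675, 263, 3434 and 5084 in GPC6 replicates 1, 2, 3 and 4. The library labelled GPC6 replicate 2 was thus close to the control level. GPC6 replicate 1 was the shallowest library and the one with the lowest score for proliferating cells (-2.91, against -0.153 to 1.11 in the other libraries). It also had 541 normalized counts of Avp and 428 of Oxt, hormone genes of hypothalamic neurons with at most 7.10 and 2.66 in any other library. Fold changes of the 10 genes are therefore also given below without each of these libraries where they moved by more than 1.5 times.

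Immediate early genes are transcribed within minutes of a stimulus from factors that the cell already holds, without new protein synthesis. In neurons, synaptic input and calcium entry activate CREB and the SRF and MEF2 factors, which bind elements close to the start sites of these genes. The first products are mostly transcription factors (the Fos and Jun proteins that pair as AP-1, the EGR zinc finger proteins, the orphan nuclear receptor Nr4a1 and the neuron-restricted Npas4), while Arc and Bdnf act at the synapse itself. Growth factors, stress and tissue handling induce many of the same genes in glia, tumor and immune cells, whereas Npas4 is known for its response to calcium in neurons.

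A sequence through which calcium entry is known to reach many of these genes is the cAMP response element, the site of CREB. Only its 5-letter half-site is shown here, because genes that behaved differently in these tumors share that half-site. RefSeq promoter sequences on GRCm38.p6 were searched for 8 of the 10 genes, over the 250 bases upstream of each start and on both strands. Those of Egr1 and Arc were not searched, so the counts below do not cover these genes. The element in full, TGACGTCA, was in none of them and in 1.55% of all 32851 promoters. Its 5-letter half-site, TGACG, was in at least 1 promoter of all 8 genes, whereas 17.8% of all promoters and 19.8% of all genes had it. It was in the promoter of each of the 6 genes with a single start among these sequences (Fos, Fosb, Junb, Egr4, Npas4 and Nr4a1). Bdnf has 7 such starts and Egr2 has 5, and some of these lacked the half-site. The annotated Nr4a1 gene begins upstream of the window searched, at 101254269, and the sequence there was not searched. A full element holds the half-site on both strands, so a full element would have been counted under both.

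Of the single-start genes, the printed windows were chosen to show a pair that varied little across the tumors (Fos and Nr4a1) and a pair that varied widely (Egr4 and Npas4). They lie at chr12:85473640-85473889 on the plus strand (Fos), chr15:101266596-101266845 on the plus strand (Nr4a1), chr6:85513590-85513839 on the minus strand (Egr4) and chr19:4989972-4990221 on the minus strand (Npas4), each ending at the base before the start. Capitals mark TGACG or its reverse complement, of which there were 2 in Fos, 4 in Nr4a1, 2 in Egr4 and 2 in Npas4.
Fos: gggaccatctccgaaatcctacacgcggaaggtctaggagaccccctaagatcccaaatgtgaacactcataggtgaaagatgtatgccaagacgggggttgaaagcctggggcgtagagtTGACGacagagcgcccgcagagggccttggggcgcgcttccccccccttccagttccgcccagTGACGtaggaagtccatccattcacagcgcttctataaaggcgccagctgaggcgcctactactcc
Nr4a1: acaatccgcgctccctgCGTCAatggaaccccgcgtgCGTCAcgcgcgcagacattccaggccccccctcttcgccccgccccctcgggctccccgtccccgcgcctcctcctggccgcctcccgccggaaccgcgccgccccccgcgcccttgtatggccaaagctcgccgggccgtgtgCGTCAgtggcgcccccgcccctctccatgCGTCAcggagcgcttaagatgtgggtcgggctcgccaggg
Egr4: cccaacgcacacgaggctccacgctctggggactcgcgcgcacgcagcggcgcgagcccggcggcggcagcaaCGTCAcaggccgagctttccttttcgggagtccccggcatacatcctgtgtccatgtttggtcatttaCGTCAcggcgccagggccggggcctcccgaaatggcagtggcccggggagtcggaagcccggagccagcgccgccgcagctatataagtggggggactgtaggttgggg
Npas4: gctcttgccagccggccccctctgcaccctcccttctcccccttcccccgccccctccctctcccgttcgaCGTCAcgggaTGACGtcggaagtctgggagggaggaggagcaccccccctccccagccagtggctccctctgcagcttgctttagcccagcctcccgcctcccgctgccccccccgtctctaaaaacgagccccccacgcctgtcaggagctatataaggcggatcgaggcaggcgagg

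Both pairs held the half-site, and its number did not separate the genes of narrow and wide range. In Npas4 the 2 half-sites lay within a few bases of each other in opposite orientation, and in Egr4 and Fos they were farther apart. An AP-1 site (TGANTCA) was found upstream of 1 of the 7 starts of Bdnf and of no other of the 8 genes. It was in 6.75% of all promoters and 7.82% of all genes. A CArG box, the SRF element, was found upstream of Egr2, which has 5 starts with partly overlapping windows, and of no other of the 8 genes. It was in 1.47% of all promoters and 1.62% of all genes. A match of letters is a description of the window and not a bound site, and the absence of a match covers only these letters in these 250 bases.

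Across the tumors, none of the 10 genes passed the test between GPC6 and 3xCR (0 of 10 at an adjusted p under 0.05, limma with Benjamini-Hochberg adjustment over all genes), and neither did any other gene (0% of 14782). At an unadjusted p under 0.05, limma counted 3 of the 10 genes, Egr1, Egr4 and Fosb, all with the higher mean in GPC6 tumors, beside 689 of all genes (4.66%). Egr1 and Egr4 were the 2 members whose groups did not overlap, each with every GPC6 library above every 3xCR library, as was the case for 2.80% of all genes, and 6.32% of all genes did not overlap in one direction or the other. With 3 against 4 libraries the exact permutation test cannot go below a p of 0.057. The mean on the log2(normalized count + 1) scale was higher in GPC6 tumors for 9 of the 10 genes, with a median log2 difference of 1.00 over the 10 genes against -0.019 over all genes tested. The median of the 10 was 0.52 without GPC6 replicate 3 and 0.061 with a score for neuronal RNA, described below, as a covariate. Egr4 and Npas4 had 3xCR means of 6.06 and 7.71 normalized counts and passed the filter at a mean of 10 through the GPC6 libraries, so that their part in these counts and in the median is a description.

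**Figure D1:**
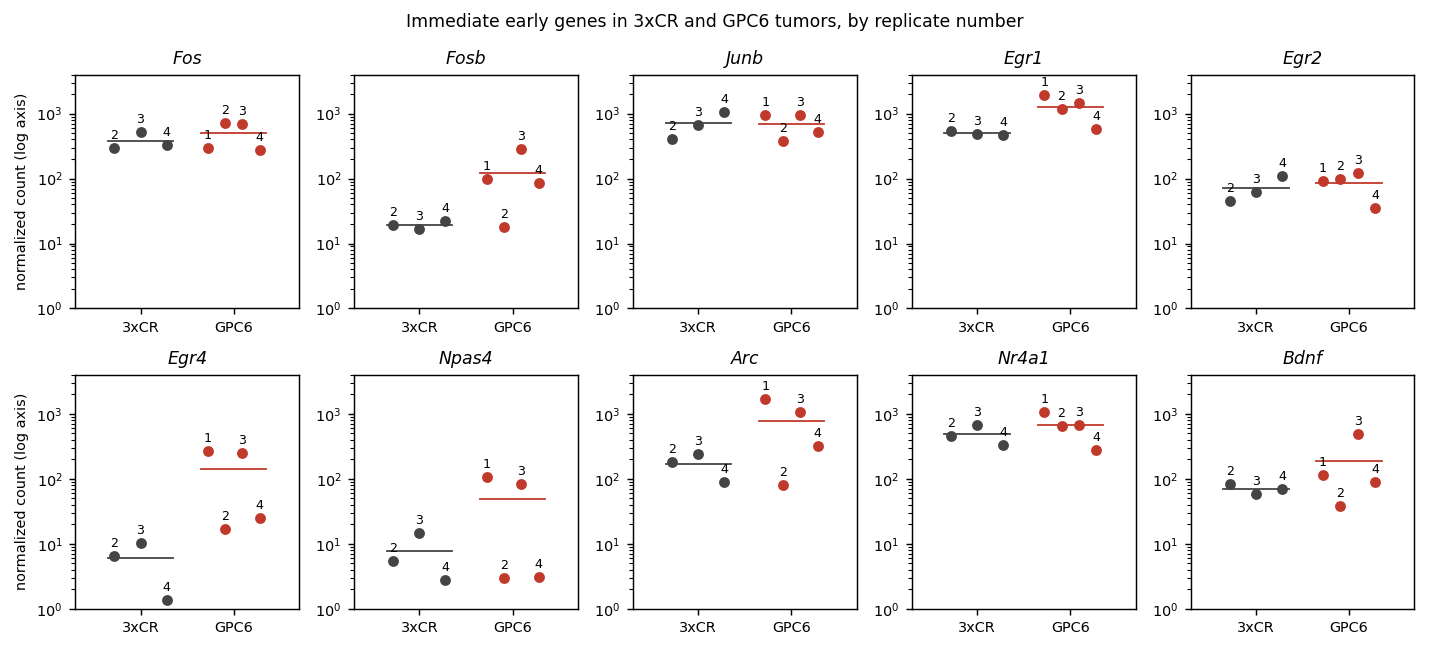
Normalized counts of the 10 genes on a log axis in each library, 3xCR tumors (grey) and GPC6 tumors (red), with the replicate number above each point and a line at the group mean. GPC6 replicates 1 and 3 hold the high points of Egr4, Npas4 and Arc, while Fos, Junb, Egr2 and Nr4a1 differ at most 3.85-fold between any 2 libraries.

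Among the AP-1 proteins, Fos, the partner that defines AP-1 and the classical marker of recent activity (chromosome 12, 85473890 to 85477273, plus strand, GRCm38), had 297, 523 and 330 normalized counts in the 3xCR libraries and 295, 720, 691 and 273 in the GPC6 libraries. Here and below, 3xCR values stand in the order of replicates 2, 3 and 4 and GPC6 values in that of replicates 1 to 4. The groups overlapped fully, since the lowest and the highest library were both GPC6 tumors, and their means were 383 ± 122 (SD, n = 3) and 495 ± 244 (SD, n = 4). The log2 fold change of Fos was 0.27 with a 95% interval of -0.73 to 1.27 (limma, Benjamini-Hochberg adjusted p = 0.864). GPC6 replicate 1, the library with the most Egr4, Npas4 and Arc, was the second lowest for Fos.

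Fosb, which like Fos pairs with Jun proteins and whose products accumulate under sustained activity (chromosome 7, 19302696 to 19310051, minus strand), had 19.2, 16.7 and 22.1 normalized counts in the 3xCR libraries and 97.4, 17.8, 287 and 86.4 in GPC6 replicates 1, 2, 3 and 4. The control libraries lay close together, 3 GPC6 libraries were at least 3.91-fold above the highest of them, and GPC6 replicate 2 was within the control range. For Fosb the log2 fold change was 2.03 ± 0.83 (SE), with an unadjusted p of 0.041 that gave an adjusted p of 0.730 (limma, Benjamini-Hochberg) and an exact permutation p of 0.171 (two-sided).

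Junb, an AP-1 partner that is induced by cytokines and growth factors as well as by activity (chromosome 8, 84974484 to 84978718, minus strand), had 409, 679 and 1070.5 normalized counts in the 3xCR libraries and 937, 383, 967 and 523 in GPC6 replicates 1, 2, 3 and 4. The highest library was a control, 3xCR replicate 4, and the groups overlapped almost completely. For Junb the log2 fold change was -0.032 with a 95% interval of -1.05 to 0.99 (limma adjusted p = 0.987), an interval that holds changes of up to about a doubling in either direction. 3xCR replicate 4 also had the highest summed level of B and plasma cell markers (108044 normalized counts, against 1879 to 6821 in the other libraries) and of T cell markers (1838 against 334 to 506). Their part in the Junb level was not tested. Junb overlaps Prdx2 on the opposite strand, and whether reads were counted by strand is not stated.

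Among the EGR proteins, Egr1, the zinc finger factor that is the most widely used activity marker beside Fos (chromosome 18, 34859823 to 34864984, plus strand), had 540, 486 and 477 normalized counts in the 3xCR libraries and 1914, 1159, 1465 and 570.0 in GPC6 replicates 1, 2, 3 and 4. The 3 controls differed by at most 1.13-fold, and every GPC6 library was above them, GPC6 replicate 4 by a small margin. For Egr1 the log2 fold change was 1.22 ± 0.39 (SE), with a 95% interval of 0.32 to 2.13, an unadjusted p of 0.014 and an adjusted p of 0.730 (limma, Benjamini-Hochberg). The exact permutation test gave the smallest p it can (p = 0.057, two-sided). GPC6 replicate 2, with Gpc6 near the control level, was above every control for 3 of the 10 genes, Egr1, Egr4 and Fos, and below every control for 3, Junb, Arc and Bdnf.

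Egr2, a related factor that also drives myelination in Schwann cells and is expressed in myeloid cells (chromosome 10, 67535475 to 67542188, plus strand), had 44.4, 61.4 and 110.5 normalized counts in the 3xCR libraries and 91.2, 96.8, 122 and 34.98 in GPC6 replicates 1, 2, 3 and 4. The groups overlapped, the lowest library being GPC6 replicate 4 and the second highest 3xCR replicate 4. Its log2 fold change was 0.22 with a 95% interval of -0.99 to 1.43 (limma, Benjamini-Hochberg adjusted p = 0.907).

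Egr4, an EGR member known from neurons and the germ line (chromosome 6, 85511121 to 85513589, minus strand), had 6.58, 10.2 and 1.38 normalized counts in the 3xCR libraries and 272, 16.8, 253 and 24.7 in GPC6 replicates 1, 2, 3 and 4. These values rested on 12, 11 and 1 reads in the 3xCR libraries and on 176, 17, 285 and 24 reads in the GPC6 libraries. GPC6 replicates 1 and 3 were at least 10.2-fold above the other GPC6 libraries, and all 4 were above the 3 controls. For GPC6 replicate 2, the 95% Poisson interval of 9.78 to 26.9 normalized counts, which covers counting error alone, overlapped that of 3xCR replicate 3, 5.11 to 18.3. For Egr4 the log2 fold change was 3.67 ± 1.15 (SE), the largest of the 10 in a gene that passed the filter through its GPC6 libraries, with an unadjusted p of 0.013 and an adjusted p of 0.730 (limma, Benjamini-Hochberg). The exact permutation p was 0.057 (two-sided), the smallest possible.

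Nr4a1, an orphan nuclear receptor induced by calcium and growth factors in many cell types and a marker of antigen signaling in lymphocytes (chromosome 15, 101254269 to 101274795, plus strand), had 459, 672 and 330 normalized counts in the 3xCR libraries and 1060, 658, 687 and 276 in GPC6 replicates 1, 2, 3 and 4. The highest and the lowest library were both GPC6 tumors, and the control values lay between them. Its log2 fold change was 0.37 with a 95% interval of -0.70 to 1.44 (limma, Benjamini-Hochberg adjusted p = 0.823).

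Npas4, the factor that calcium entry induces in neurons and that adjusts their inhibitory input (chromosome 19, 4984355 to 4990316, minus strand), had 5.48, 14.9 and 2.76 normalized counts in the 3xCR libraries and 108, 2.96, 84.3 and 3.09 in GPC6 replicates 1, 2, 3 and 4. The GPC6 libraries thus fell into a pair near 100 and a pair at 3, and the low pair was within the control range. The low values rested on 3 reads each, and their 95% Poisson intervals of 0.611 to 8.66 and 0.637 to 9.02 normalized counts overlapped those of all 3 controls. The log2 difference of Npas4 was 1.43 with a 95% interval of -1.80 to 4.67 (limma, Benjamini-Hochberg adjusted p = 0.775).

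Arc, the capsid-like protein that reaches active synapses and drives removal of AMPA receptors (chromosome 15, 74669083 to 74672570, minus strand), had 180, 239 and 88.4 normalized counts in the 3xCR libraries and 1680, 81.0, 1055 and 324 in GPC6 replicates 1, 2, 3 and 4. GPC6 replicates 1, 3 and 4 were above all controls, and GPC6 replicate 2 was the lowest of the 7 libraries. The log2 fold change of Arc was 1.57 with a 95% interval of -0.70 to 3.83 (limma, Benjamini-Hochberg adjusted p = 0.730), and the exact permutation p was 0.286.

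Bdnf, the neurotrophin that signals through TrkB and that neurons release in response to activity (chromosome 2, 109674700 to 109727007, plus strand), had 82.8, 57.7 and 70.4 normalized counts in the 3xCR libraries and 116, 38.5, 499 and 90.5 in GPC6 replicates 1, 2, 3 and 4. Only GPC6 replicate 3 stood far from the controls, and GPC6 replicate 2 was again the lowest. The log2 fold change of Bdnf was 0.77 with a 95% interval of -1.001 to 2.55 (limma, Benjamini-Hochberg adjusted p = 0.780) and was 0.090 without GPC6 replicate 3. The table gives 1 value per gene, so the transcripts from the separate Bdnf promoters cannot be told apart, and Gm45346 overlaps the gene on the opposite strand.

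**Figure D2:**
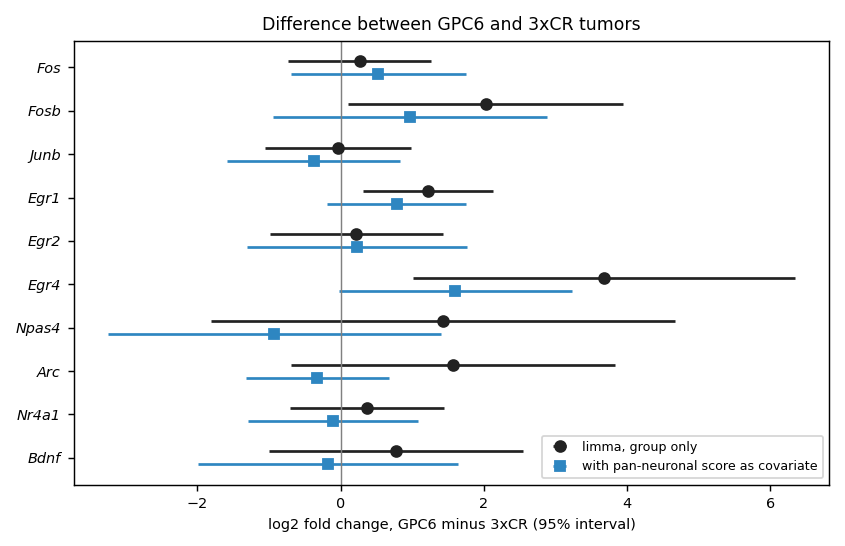
Log2 fold change of each gene, GPC6 minus 3xCR tumors, with 95% intervals from limma on log2(normalized count + 1), for the comparison of the groups alone (black circles) and with the pan-neuronal score of each library as a covariate (blue squares). The intervals of Fosb, Egr1 and Egr4 lie above 0 in the first fit, and all 10 include 0 in the second.

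Set side by side, the genes fell into those that varied widely between tumors and those that did not. The highest library exceeded the lowest 197-fold for Egr4 (GPC6 replicate 1 over 3xCR replicate 4, with 1 read, counting interval 34.9 to 7823) and 39.2-fold for Npas4 (the same libraries, with 2 reads in the lower, 10.4 to 330). It exceeded the lowest 20.7-fold for Arc, 17.1-fold for Fosb and 12.9-fold for Bdnf. For Egr1, Nr4a1, Egr2, Junb and Fos the ratio was 4.02, 3.85, 3.47, 2.79 and 2.64. The genes of wide range shared their high libraries, because GPC6 replicates 1 and 3 were the top pair for Fosb, Egr4, Npas4, Arc and Bdnf, and also for Egr1 and Nr4a1. Fos was highest in GPC6 replicates 2 and 3, Junb in 3xCR replicate 4 and GPC6 replicate 3, and Egr2 in GPC6 replicate 3 and 3xCR replicate 4. GPC6 replicate 3 was therefore in the top pair of all 10 genes, and GPC6 replicate 1 in that of 7. The share of all tested genes with these libraries in their top pair was not counted, so these numbers are a description.

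Of the single libraries left out in turn, only GPC6 replicate 2 altered the number of the 10 genes without overlap. It had Gpc6 near the control level and also the lowest pan-neuronal score (described below) of the GPC6 libraries, -1.14. These traits cannot be told apart here. Without GPC6 replicate 2, every remaining GPC6 library was above every 3xCR library for 5 of the 10 genes (Fosb, Egr1, Egr4, Arc and Bdnf), against 7.94% of all genes. Without GPC6 replicate 1 it was 2 of the 10, Egr1 and Egr4 as before, against 3.84% of all genes, and these were also the 2 genes when any other single library was left out, against 3.64% (3xCR replicate 4 left out) to 10.3% (3xCR replicate 2 left out) of all genes. With GPC6 replicates 1 and 2 both left out, the 5 genes were again Fosb, Egr1, Egr4, Arc and Bdnf, beside 1623 of all 14782 genes. The limma test called 0 of the 10 genes at an adjusted p under 0.05 whichever single library was left out.

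The size of the log2 fold change depended on GPC6 replicates 1 and 2 and on other libraries. Without GPC6 replicate 1 that of Npas4 was 0.61 in place of 1.43, that of Arc 0.95 in place of 1.57 and that of Nr4a1 0.097 in place of 0.37, while that of Fos was 0.47 in place of 0.27. Without GPC6 replicate 2 that of Npas4 was 2.21, that of Arc 2.40 and that of Bdnf 1.31 in place of 0.77, while that of Fos was 0.040 and that of Egr2 0.12 in place of 0.22. Junb, close to 0 with all libraries, was at -0.21 and 0.22. Fosb, Egr1 and Egr4 moved by less, to 1.94, 0.98 and 3.05 without GPC6 replicate 1 and to 2.74, 1.22 and 4.37 without GPC6 replicate 2. With GPC6 replicate 3 left out, Fos was at 0.060, Egr2 at 0.013, Npas4 at 0.73 and Fosb at 1.43 in place of 2.03. With GPC6 replicate 4 left out, Nr4a1 was at 0.74 and Npas4 at 2.19. With 3xCR replicate 4 left out, Nr4a1 was at 0.12 and Npas4 at 0.96.

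Levels between genes were compared per kilobase of exon, as normalized counts per kilobase averaged over the 7 libraries. Junb was the most abundant member at 308, followed by Egr1 at 211, Fos at 190, Arc at 170 and Nr4a1 at 169. Egr4 (38.9), Egr2 (23.6), Bdnf (21.9), Fosb (12.5) and Npas4 (7.66) were lower. The order differed between the groups, since Arc had 55.4 per kilobase in 3xCR tumors and 257 in GPC6 tumors and Egr1 had 112 and 285, against 313 and 305 for Junb. Egr4 was next to last in 3xCR tumors at 2.82, with Fosb at 3.10 and Npas4 at 1.86, and was sixth in GPC6 tumors at 65.9.

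The libraries also differed in neuronal RNA, and this moved with several of the genes. Of 15 pan-neuronal markers, 15 of 15 had the higher mean in GPC6 tumors and 0 of 15 passed the adjusted test (limma). Their summed level was 7897 to 15877 normalized counts in 3xCR tumors and 10800 to 85193 in GPC6 tumors, and none of the markers was at 0 in any library. The pan-neuronal score, the mean over the markers of the log2 value minus the marker's own mean, was -0.160, -0.865 and -1.83 in the 3xCR libraries and 2.41, -1.14, 1.53 and 0.056 in the GPC6 libraries. Snap25, the synaptic SNARE protein with the highest mean of the list, had 1440, 681 and 126 normalized counts in the 3xCR libraries and 20138, 708, 7469 and 2490 in the GPC6 libraries. Markers of cortical excitatory neurons, the cells in which these genes are best known, had the higher mean in GPC6 tumors for 10 of 10 genes, with a summed level of 492 to 4822 normalized counts in 3xCR and 1023 to 48362 in GPC6 tumors, and inhibitory neuron markers did so for 10 of 10. GPC6 replicates 1 and 3, the top pair for most of the 10 genes, were the pair with the most neuronal RNA, and GPC6 replicate 2 was below 2 of the 3 controls.

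**Figure D3:**
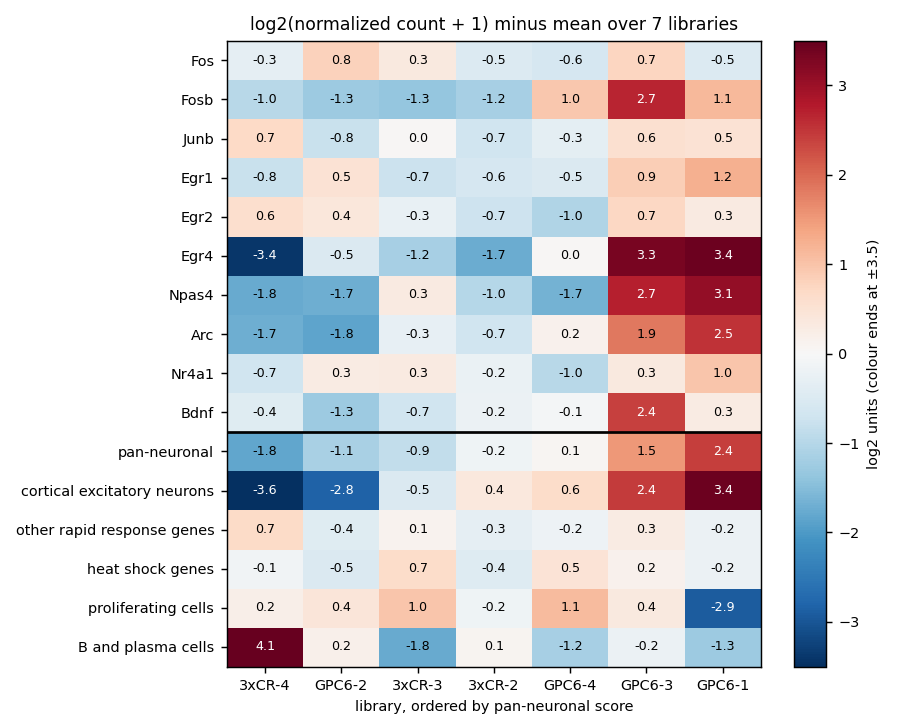
Each cell gives log2(normalized count + 1) minus the mean over the 7 libraries, for the 10 genes (above the line) and, below it, the mean of the same quantity over the genes of a marker list; libraries run from the lowest to the highest pan-neuronal score. Egr4, Npas4 and Arc are high in the last 2 columns, GPC6 replicates 3 and 1, whereas Fos, Junb and Egr2 are not ordered along the axis.

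The pan-neuronal score was also subtracted from each gene's log2 value. The score had an SD of 1.504 over the 7 libraries, so that a gene with an SD under 0.752 must gain in SD by the subtraction, whatever its relation to neuronal RNA, and Fos, Junb, Nr4a1 and Egr2 were below that limit. Of the genes with a larger SD, Arc went from 1.67 to 0.454, Npas4 from 2.11 to 1.09, Egr4 from 2.55 to 1.28 and Fosb from 1.58 to 0.980, while Bdnf had 1.16 and 1.10 and Egr1 0.842 and 1.02. Arc after subtraction ranged from -0.693 to 0.579, and its highest and lowest library were 3xCR replicate 3 and GPC6 replicate 2.

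After this subtraction, Egr4 was the member whose groups still did not overlap, with -1.57, -0.299 and -1.57 in the 3xCR libraries and 1.03, 0.641, 1.80 and -0.027 in the GPC6 libraries. The value of 3xCR replicate 4 rested on 1 read. GPC6 replicate 4 and 3xCR replicate 3, the libraries that set the gap, rested on 24 and 11 reads. Their 95% Poisson intervals before subtraction, 15.8 to 36.7 and 5.11 to 18.3 normalized counts, overlapped. Egr4 passed the filter through its GPC6 libraries, so that its place here is a description. After the same subtraction, every GPC6 library was above every 3xCR library for 0.135% of all genes, a share that is low because the mean score differed by 1.66 between the groups and its subtraction lowers the difference of every gene by that amount. The difference of the means was 2.01 on the log2 scale (exact permutation p = 0.057, two-sided, the smallest possible). For the other 9 genes the exact permutation p was 0.171 to 0.857. After subtraction 8 of the 10 genes had the lower mean in GPC6 tumors, where the subtraction itself lowers every difference by 1.66. The fit with the score as a covariate, which estimates the slope for each gene, gave log2 fold changes of 1.604 for Egr4 (95% interval -0.022 to 3.23), 0.97 for Fosb (-0.94 to 2.88), 0.78 for Egr1 (-0.19 to 1.75) and 0.53 for Fos. It gave -0.92 for Npas4, -0.32 for Arc, -0.17 for Bdnf and -0.10 for Nr4a1, which all had the opposite sign without the score. In this fit 0 of 14782 genes passed the adjusted test and 298 had an unadjusted p under 0.05, 0 of the 10 among them (limma, Benjamini-Hochberg).

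The relatives of the 10 genes were read from lists of their families and pathways, which share members with the 10. Among AP-1 genes, 2 of 14 tested had the higher mean in GPC6 tumors, Fosb and Fos, and 12 had the lower mean (median log2 fold change -0.41, against -0.019 for all genes). Jun, the most abundant AP-1 gene, had 1035, 2019 and 1776 normalized counts in the 3xCR libraries and 623, 1909, 1758 and 1213 in the GPC6 libraries. Batf2, an interferon-responsive relative in myeloid cells with the smallest log2 fold change of the list (-2.10), had 430, 382 and 717 in the 3xCR libraries and 37.1, 114, 289 and 136 in the GPC6 libraries (limma, Benjamini-Hochberg adjusted p = 0.730), without overlap. Microglial markers had the lower mean in GPC6 tumors for 10 of 10 genes (summed level 36355 to 65294 in 3xCR and 18518 to 33091 in GPC6 tumors), and their part in the values of this family was not tested.

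In the EGR family with the NAB corepressors, 4 of 6 genes had the higher mean in GPC6 tumors (median 0.72). Egr3, which was chosen after its values were seen, resembled Egr4, with 105, 54.0 and 23.5 normalized counts in the 3xCR libraries and 841, 167, 627 and 158 in the GPC6 libraries. The groups of Egr3 did not overlap, and its log2 fold change was 2.72 ± 0.75 (SE), with an unadjusted p of 0.0069 and an adjusted p of 0.730 (limma, Benjamini-Hochberg). Nab1, a corepressor of EGR proteins, had means of 546 and 454 normalized counts. In the NR4A family, 3 of 3 genes had the higher mean (median 0.37, and 0.097 without GPC6 replicate 1 and -0.52 with the pan-neuronal score as a covariate), and the largest log2 fold change was that of Nr4a2 (0.96), with 45.0, 39.1 and 37.3 in the 3xCR libraries and 243, 14.8, 131 and 81.3 in the GPC6 libraries. Nr4a3 had a log2 fold change of 0.20.

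Of 29 other rapid response genes that respond to growth factors and stress in many cell types, 6 had the higher mean in GPC6 tumors and 23 the lower (median -0.37, and -0.10 without 3xCR replicate 4). Myc, the most abundant, had 825, 1392 and 783 normalized counts in the 3xCR libraries and 210, 1015, 1182 and 3820 in the GPC6 libraries. Arl4d, a small GTPase relative with the largest log2 fold change of the list (1.44), had its 2 high values, 379 and 255, in GPC6 replicates 1 and 3, against 26.7 to 66.9 in the other libraries. Socs3, the feedback inhibitor of cytokine signaling, had the smallest (-0.95), with 1233 normalized counts in 3xCR replicate 4 and 80.4 in GPC6 replicate 1. Heat shock genes, which tissue handling can induce, were split 7 and 7 (median 0.018, and -0.22 to 0.23 with single libraries left out). Of these, Hspa8 was the most abundant, with 16953 to 21277 normalized counts in 3xCR and 17146 to 29814 in GPC6 tumors, and the largest and the smallest log2 fold changes were those of Hsph1 (0.72) and Hspb1 (-1.24). The median does not show single libraries. Hspa1a and Hspa1b, named after their values were seen, had 772 and 417 in 3xCR replicate 3. They had 54.3 to 331 and 25.7 to 215 in the other libraries.

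Among the effectors that neuronal activity induces, 20 of 23 tested genes had the higher mean in GPC6 tumors (median 1.47), Arc and Bdnf among them, and 0 of 23 passed the adjusted test (limma). The median was 0.040 with the pan-neuronal score as a covariate. Nptx1, a secreted pentraxin that clusters AMPA receptors, had 808, 455 and 275 normalized counts in the 3xCR libraries and 3238, 761, 2541 and 797 in the GPC6 libraries. Its relative Nptx2 had the largest log2 fold change (3.16), with 108, 110 and 5.53 in the 3xCR libraries and 283, 62.2, 1785 and 677 in the GPC6 libraries. Nptx2 and Bdnf were both highest in GPC6 replicate 3, whose pan-neuronal score was 1.53, against 2.41 in GPC6 replicate 1. With the pan-neuronal score as a covariate the log2 fold change of Bdnf was -0.17. The part of neuronal RNA in the order of GPC6 replicates 1 and 3 for these genes was not tested. Rasl11a had the smallest log2 fold change of the list, -0.71.

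The BDNF pathway was split, with 5 of 11 tested genes higher and 6 lower in mean (median -0.090, and 0.46 without GPC6 replicate 4). Ntrk2, which encodes the BDNF receptor TrkB and is also abundant in astrocytes, had 5775, 4615 and 1764 normalized counts in the 3xCR libraries and 12232, 5141, 5078 and 4386 in the GPC6 libraries. Sort1, a sorting receptor for BDNF, had the largest log2 fold change (1.04) and Ngfr, the low-affinity neurotrophin receptor, the smallest (-1.19). Of the 25 regulators upstream of the immediate early genes, 19 had the higher mean and 6 the lower (median 0.21, and 0.019 with the pan-neuronal score as a covariate). Arnt2, the partner of Npas4, had 2622, 1413 and 1106 in the 3xCR libraries and 4717, 2783, 2756 and 1033 in the GPC6 libraries. Camk4, the nuclear calcium/calmodulin kinase that phosphorylates CREB, had the largest log2 fold change (1.99), with 2462 normalized counts in GPC6 replicate 1 and 59.4 to 365 in the other libraries, and Atf1, a CREB relative, the smallest (-0.76).

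**Figure D4:**
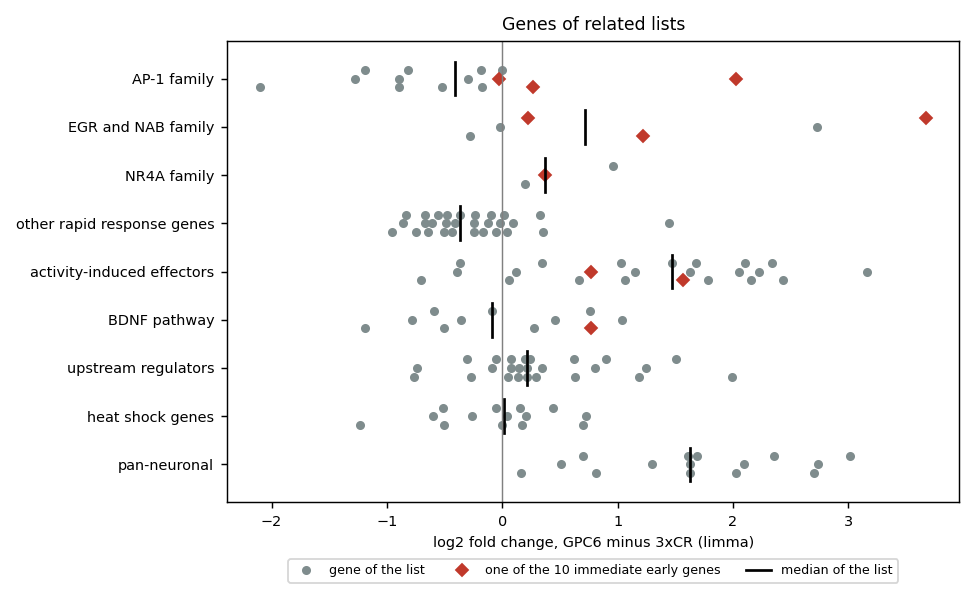
Log2 fold change, GPC6 minus 3xCR tumors (limma), of each tested gene in the related lists, with the 10 immediate early genes as red diamonds and the median of each list as a bar. The medians of the pan-neuronal markers (1.63) and of the activity-induced effectors (1.47) are the highest of those shown, and those of the AP-1 family (-0.41) and the other rapid response genes (-0.37) the lowest.

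The genes most like each of the 10 were taken as the 3 with the highest Pearson correlation of log2 values among the other tested genes, as a description over 7 libraries that differ in depth and makeup. For Egr4 these were Actr8, Mrvi1 and Polr3a, for Arc they were Wdr54, Mtfp1 and Hs6st2, and for Npas4 they were Cdkl4, Ap2a2 and Crip2. For Fosb they were Idh3g, Rgs12 and BC023829, for Bdnf they were Tnnc1, Rspo2 and Zfp951, and for Egr1 they were Pcdh1, Eif4g3 and Cmip. Those of Nr4a1 were Ajap1, Cntfr and Fxyd7, those of Fos were Aacs, Gap43 and Vax2, and those of Egr2 were Pcdhgb2, Zfp618 and Trim36. Those of Junb were Gata2, Il34 and Cd34. The highest correlation for a gene ranged from 0.957 (Fos) to 0.993 (Arc).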

How the data were processed

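RNA-Seq libraries of 7 endpoint tumors, 3 of the 3xCR and 4 of the GPC6 group as labelled, were compared. Per the submitters' processing notes and the methods of the study, the authors aligned reads to mm10 with STAR 2.5.0a and normalized gene counts with DESeq2 1.20.0. The deposited values are a normalized signal per gene, that is the counts of a library over its size factor, without correction for gene length. No batch is named, and 0 further columns per sample were present. Of 19282 entries, 25 had names turned into dates and were left out (0.254% to 0.361% of reads).

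Whole reads were recovered from the values (100% within 0.01 of a whole number), giving 7197692 to 18879762 reads on genes per library. At 0 reads these allow 1.64 to 4.64 normalized counts (3 reads). The test was limma 3.58.1, run in R 4.3.3 with a mean-variance trend on log2(normalized count + 1), two-sided, with Benjamini-Hochberg adjustment over the 14782 genes with a mean of at least 10. Fold changes on this scale understate those of low genes. Because the values were deposited after normalization, count tests on recovered reads (edgeR 4.0.16 with 0 genes called, DESeq2 1.42.0 with 4, and limma voom with 0) served as alternatives. Nothing says that libraries shared an animal, a litter or a day, and p-values measure the spread between these tumors. Intervals of single values are exact 95% Poisson intervals and those of ratios of reads exact binomial ones, which cover counting error only, and single values were compared by two-sided exact permutation tests.

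The 10 genes and all lists were chosen with earlier results of these data known. Named were the 10 genes, from each related list the most abundant gene and the genes at both ends of the log2 fold changes, and for each of the 10 the 3 most similar genes. Positions are from the GENCODE vM21 annotation of GRCm38, the build of the mm10 assembly, and promoters from RefSeq on GRCm38.p6.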

Additional observations from a re-analysis of the deposited data

Results flagged for a closer look

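Of 43 quantities examined in groups of 4 libraries, 1 had a library set apart from the other 3 by Dixon's 95% criterion, where chance gives about 2.15. It was Nr4a1 after subtraction of the pan-neuronal score, which was 1.43 in GPC6 replicate 2 against -1.44, -1.18 and -1.02 in GPC6 replicates 1, 3 and 4, a gap of 0.855 of the whole range. The normalized count of Nr4a1 in GPC6 replicate 2 was 658, close to the 687 of GPC6 replicate 3, while the pan-neuronal scores of these libraries were -1.14 and 1.53.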

How the results depend on the processing

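Over 21 alternatives, 20 of them planned and 1 (leaving out both GPC6 replicates 1 and 2) added after seeing the data, the 10 genes gave 209 values, of which 192 kept their direction and their side of the threshold, 13 changed sign and 4 crossed the threshold (Npas4 has no value under the filter at a mean of 50). The number of genes called was 0 in the limma comparison, 4 with the DESeq2 Wald test (Met, Nupr1, Rn45s and D830030K20Rik, named after their values were seen) and 1962 with a weight estimated for each library. With library weights 4 of the 10 genes were called, beside 1962 of the 14782 genes tested. They were Fosb (log2 fold change 3.44), Egr1 (1.47), Egr4 (4.09) and Bdnf (2.43), with limma Benjamini-Hochberg adjusted p of 0.029 to 0.031. Egr4, with a 3xCR mean of 6.06, passed the filter at a mean of 10 through its GPC6 libraries, so its call in this fit is a description. That fit gave weights of 8.71 to 3xCR replicate 3 and 4.47 to GPC6 replicate 3 and 0.301 to 0.849 to the others, so it rests mainly on 1 library of each group. Unadjusted p under 0.05 was counted for 991 genes with edgeR, 1853 with DESeq2 and 499 with voom, and for 4, 5 and 1 of the 10 genes. The number of genes tested is not given for each of these methods, so the counts are a description and cannot be compared as shares.

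Junb, at -0.032, was 0.015 with libraries scaled to an equal total, 0.36 with library weights and 0.091 without GPC6 replicates 1 and 2, and ranged from -0.38 (without 3xCR replicate 2) to 0.31 (without 3xCR replicate 4) with single libraries left out. Egr2, at 0.22, was -0.037 without GPC6 replicates 1 and 2 and with single libraries left out lay between -0.071 (3xCR replicate 2 left out) and 0.60 (GPC6 replicate 4 left out). Nr4a1 was -0.10 without GPC6 replicates 1 and 2. With the pan-neuronal score as a covariate Npas4 was -0.92, Arc -0.32, Nr4a1 -0.10 and Bdnf -0.17. The causes of the other sign changes were not tested.

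The replicate numbers 2, 3 and 4 occur in both groups, but their deviations from the group means correlated at -0.194, 0.118 and 0.296, so that the numbers were not taken to pair the tumors. A fit with the replicate number as a block, which drops GPC6 replicate 1, called 0 genes and 0 of the 10, with 688 genes at an unadjusted p under 0.05. Depth limits Npas4 and Egr4 most, since single libraries held 1 to 3 reads of them.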
